A study of Homo sapiens with 4 samples.

Results

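Gene expression was compared between HepG2 cells treated with PD0332991 and HepG2 cells treated with the vehicle DMSO. HepG2 is a human liver cancer line that the study counted among its hepatocellular carcinoma lines. PD0332991 (palbociclib) is a small-molecule inhibitor of the cyclin-dependent kinases CDK4 and CDK6. The 2 libraries were 1 for each treatment, and a library from HepG2 cells transfected with scrambled siRNA was used as a second control, being untreated with the inhibitor but transfected. The labels name no genetic change in any of the cells, which were grown in RPMI medium with serum. The dose and duration of PD0332991 for these libraries are not stated in the sources used here. All 13443 genes with at least 10 reads in the PD0332991 or the DMSO library were described, of 24462 gene symbols in all. The library totals were 8983848 reads for PD0332991, 9123209 for DMSO and 11176880 for scrambled siRNA. With 1 library a side, the spread between cultures is unknown. Every interval given here is a 95% Clopper-Pearson interval that covers counting error only, PCR copies of 1 molecule were not removed by molecular identifiers, and no difference has a replicate check.

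CDK4 and CDK6, bound to D-type cyclins, phosphorylate the retinoblastoma protein RB and so release E2F transcription factors from it. Freed E2F factors switch on the genes for DNA replication, and a related complex of B-MYB, FOXM1 and the DREAM subunits acts later on the genes for mitosis through an element called CHR. When CDK4/6 are blocked, RB-positive cells stop in G1. Hepatocytes of the adult liver are mostly out of the cycle and devote their transcription to plasma proteins, lipoproteins, bile acids and the breakdown of amino acids and drugs.

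The genes of the cell division cycle were lower after PD0332991. On 9 lists of replication, mitosis, DNA repair and chromatin assembly genes, 221 of 279 genes (79.2%) were at least 2-fold lower than in DMSO, none was at least 2-fold higher, and the median log2 fold change was -2.08. In bulk RNA such as this, fewer cells in S phase or mitosis and less RNA per cell cannot be told apart. Over all 13443 genes, 949 (7.06%) passed 2-fold downward and 1007 (7.49%) upward. Against scrambled siRNA, 1107 of 13552 genes (8.17%) were at least 2-fold lower after PD0332991 and 1443 (10.6%) higher. The 2 controls themselves differed by as much for many genes: of 13303 genes, scrambled siRNA was 2-fold or more above DMSO for 705 (5.30%) and 2-fold or more below it for 883 (6.64%). A gene was therefore counted as different from both controls where it was at least 2-fold apart from each in the same direction, which held for 566 lower genes (4.21%) and 559 higher genes (4.16%). The comparisons share the PD0332991 library, so an error in that library would pass into both. Of the 566 lower genes, 194 (34.3%) were on the 9 lists. Together the 279 genes took 27302 CPM (counts scaled to library size) in DMSO, 20999 in scrambled siRNA and 8634 after PD0332991.

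The higher and lower genes differed in how well they were counted. The genes lower than both controls had a median of 248 reads in DMSO, while those higher than both had a median of 8 reads in DMSO and 28 after PD0332991. Where the mean level was under 1 CPM, in 379 genes, 51.7% passed 2-fold upward and 23.0% downward. At a mean level of 10 CPM or more, in 9237 genes, 217 (2.35%) passed upward and 497 (5.38%) downward. Most of the higher genes were thus weakly expressed, and shares at 10 CPM or more are given for the ATF4, liver and matrix genes.

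The promoters of the lower genes are shown first because 2 sets of them, for replication and for mitosis, carried different short motifs. The windows run from 250 bases before to 50 bases after the annotated start in RefSeq (GRCh38.p14, a later build than the hg19 named in the submitters' processing notes), and 10527 of the 13443 genes had one. The E2F motif was searched as TTTCCCGC, TTTGGCGC and TTTCGCGC, and the CHR motif as TTTGAA and TTCGAA, all on both strands, and words of one motif cannot overlap words of the other. CDC6 (chr17:40287629-40287928, plus strand) loads the replicative helicase at origins and is shown as a replication gene with an E2F match. CDCA5 (chr11:65083991-65084290, minus strand) encodes sororin, which holds sister chromatids together. KIF23 (chr15:69414099-69414398, plus strand) is a motor of cytokinesis and MKI67 (chr10:128126374-128126673, minus strand) encodes the proliferation marker Ki-67. In the sequences, written 5′ to 3′ along the gene's strand, capitals mark E2F and CHR matches.
CDC6: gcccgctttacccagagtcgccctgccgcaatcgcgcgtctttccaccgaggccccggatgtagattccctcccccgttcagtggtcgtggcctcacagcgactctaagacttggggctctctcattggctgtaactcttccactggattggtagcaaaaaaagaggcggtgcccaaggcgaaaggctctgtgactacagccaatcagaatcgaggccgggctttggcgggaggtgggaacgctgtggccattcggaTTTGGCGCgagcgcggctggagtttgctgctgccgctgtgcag
CDCA5: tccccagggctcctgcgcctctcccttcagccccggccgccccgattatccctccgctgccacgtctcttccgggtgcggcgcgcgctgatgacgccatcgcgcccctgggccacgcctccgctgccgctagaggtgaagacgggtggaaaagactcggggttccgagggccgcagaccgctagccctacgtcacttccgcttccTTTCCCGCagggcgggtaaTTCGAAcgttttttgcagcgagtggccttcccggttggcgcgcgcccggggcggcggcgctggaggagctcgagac
KIF23: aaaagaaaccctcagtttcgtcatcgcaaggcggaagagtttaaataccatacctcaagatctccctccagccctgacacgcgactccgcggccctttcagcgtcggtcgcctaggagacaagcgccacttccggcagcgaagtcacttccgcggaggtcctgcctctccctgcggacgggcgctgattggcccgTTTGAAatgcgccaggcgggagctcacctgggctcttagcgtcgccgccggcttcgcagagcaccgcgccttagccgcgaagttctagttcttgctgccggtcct
MKI67: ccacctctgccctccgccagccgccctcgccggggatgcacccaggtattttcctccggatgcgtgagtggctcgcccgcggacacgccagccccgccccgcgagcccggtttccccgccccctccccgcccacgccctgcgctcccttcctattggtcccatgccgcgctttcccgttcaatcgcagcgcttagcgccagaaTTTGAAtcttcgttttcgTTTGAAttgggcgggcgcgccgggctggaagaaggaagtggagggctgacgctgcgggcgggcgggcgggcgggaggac
The CDC6 window held 1 E2F match, 7 bases after the start, and no CHR match. The CDCA5 window held 1 E2F match 45 bases and 1 CHR match 26 bases before the start. The CHR match of KIF23 began 55 bases before the start, and those of MKI67 began 47 and 29 bases before it. Each window printed held a match, while those of RRM2, MCM10, CENPE and AURKB, also lower genes, held neither motif.

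Of the 41 promoters of replication origin and replisome genes, 18 (43.9%) held an E2F motif and 2 (4.88%) a CHR motif. Spindle motor and cytokinesis genes had the opposite pattern, with an E2F motif in 2 of 28 promoters (7.14%) and a CHR motif in 23 (82.1%). Kinetochore genes held a CHR motif in 18 of 32 promoters (56.2%), condensin and cohesin genes in 13 of 23 (56.5%) and mitotic kinases and cyclins in 10 of 21 (47.6%). Among all genes tested, 477 of 10527 promoters (4.53%) held the E2F motif and 1196 (11.4%) the CHR motif, while the shares over all 27305 RefSeq promoters were 2.79% and 16.6%. Of the 434 promoters of genes lower than both controls, 63 (14.5%) held the E2F motif and 139 (32.0%) the CHR motif. The 384 promoters of genes higher than both held them in 4 (1.04%) and 45 (11.7%). Genes lower than both controls that were on no list held the CHR motif in 67 of 248 promoters (27.0%). A match is a description of the letters in the window and not of binding.

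**Figure D1:**
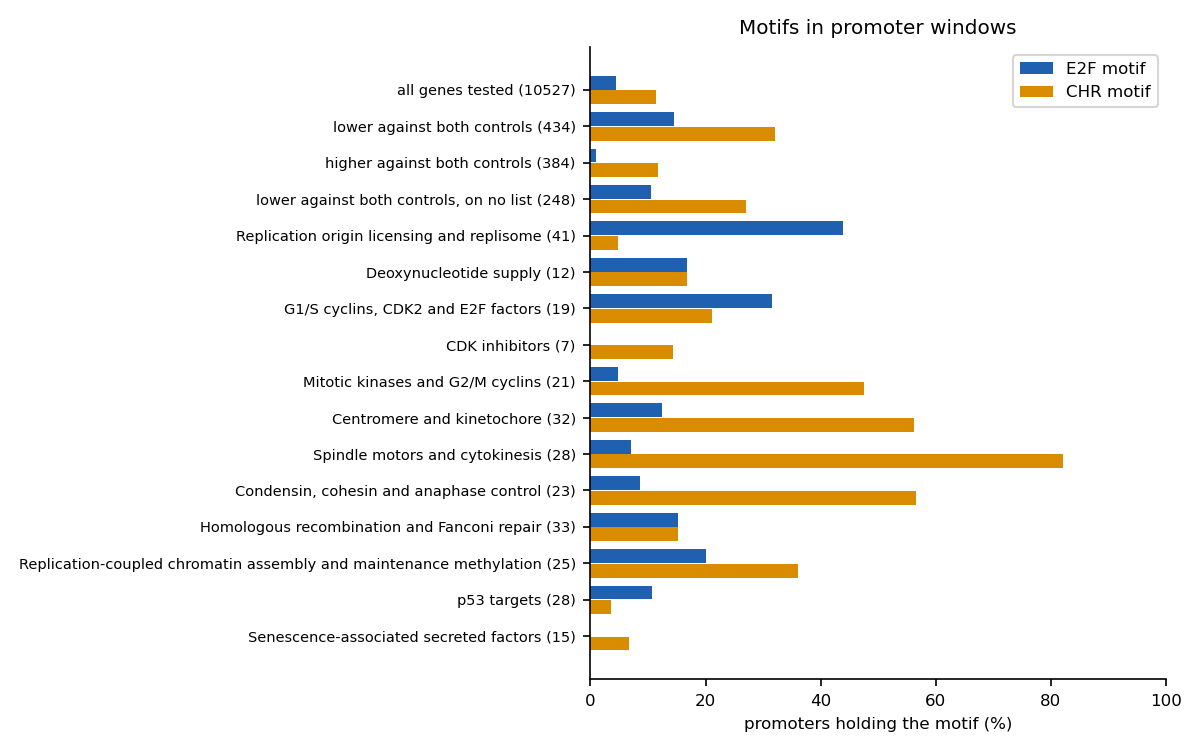
Share of promoter windows (%, horizontal axis) that held an E2F motif (blue) or a CHR motif (orange), for all genes tested, genes at least 2-fold apart from both controls, and each cell cycle list, with the number of promoters in parentheses. The E2F share is highest for the replication list at 43.9% and the CHR share is highest for the spindle list at 82.1%.

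The kinases that the drug inhibits differed by less than 2-fold. CDK4 had 2754 reads in DMSO, 3789 in scrambled siRNA and 2344 after PD0332991, and its fold change was 0.854 to DMSO and 0.727 to scrambled siRNA. For CDK6 the fold changes were 0.930 and 0.894, and for CCND1, the D-type cyclin partner, 1.08 and 1.24. RB1, which encodes the retinoblastoma protein, had 311, 198 and 154 reads in DMSO, scrambled siRNA and PD0332991. Its fold change was 0.498 (95% interval 0.407 to 0.605) to DMSO but 0.914 (0.736 to 1.13) to scrambled siRNA, so the lower level held against 1 control only.

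Replication genes were lower almost without exception. On the list of origin licensing and replisome genes, 45 of 48 were at least 2-fold lower than DMSO and 40 lower than both controls, and the other 3 were CDC7, POLD2 and RPA1. The median log2 fold change was -2.24 to DMSO and -1.77 to scrambled siRNA, while scrambled siRNA stood at -0.38 against DMSO. MCM10, which joins the helicase at origins, had 562 reads in DMSO, 553 in scrambled siRNA and 28 after PD0332991. CDC6 had 780, 848 and 44 reads. The controls were close to each other for these genes and far above PD0332991, with fold changes to DMSO of 0.0508 (95% interval 0.0329 to 0.0731) for MCM10 and 0.0572 (0.0408 to 0.0767) for CDC6. CLSPN, the checkpoint adaptor claspin, had a fold change of 0.0783 and DSCC1, a cohesion clamp-loader subunit, one of 0.0625.

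The enzymes that supply deoxynucleotides were lower as well, 10 of 14 at least 2-fold against DMSO and 6 against both controls, with medians of -1.58 to DMSO and -0.97 to scrambled siRNA. RRM2, the regulated subunit of ribonucleotide reductase, had 2015 reads in DMSO, 2244 in scrambled siRNA and 93 after PD0332991 (fold change to DMSO: 0.0466, 95% interval 0.0372 to 0.0570). Its partner RRM1 had a fold change of 0.198. TK1, thymidine kinase, had 747, 450 and 93 reads, and its fold changes were 0.126 to DMSO and 0.244 to scrambled siRNA, the controls being apart from each other.

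Among G1/S cyclins and E2F factors, 14 of 25 were at least 2-fold lower than DMSO and 10 lower than both controls. The E2F family was split. E2F1 had 770 reads in DMSO, 827 in scrambled siRNA and 89 after PD0332991 (fold change to DMSO: 0.117, 95% interval 0.0921 to 0.145). E2F2 had 248, 147 and 10 reads and E2F8 had 99, 45 and 6, with fold changes of 0.0424 and 0.0655 to DMSO. E2F3, E2F4, E2F5 and E2F6 did not reach 2-fold, with fold changes to DMSO from 0.634 to 0.931. CDC25A, the phosphatase that activates CDK2, had a fold change of 0.165 to DMSO. CCNE2, a cyclin of CDK2, had one of 0.328 to DMSO but 0.618 (95% interval 0.394 to 0.945) to scrambled siRNA, where it did not reach 2-fold. Of 7 CDK inhibitor genes, 2 were at least 2-fold lower than both controls and none was 2-fold higher, with medians of -0.27 to DMSO and -0.81 to scrambled siRNA. CDKN2C, which encodes the CDK4/6 inhibitor p18, had 316 reads in DMSO, 158 in scrambled siRNA and 21 after PD0332991, and CDKN3, a CDK-associated phosphatase, had fold changes of 0.157 and 0.364 to the controls.

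The mitotic lists were as low. At least 2-fold lower than DMSO were 28 of 29 mitotic kinases and G2/M cyclins, 35 of 39 centromere and kinetochore genes, 28 of 31 spindle motor and cytokinesis genes and 17 of 27 condensin, cohesin and anaphase genes. Lower than both controls were 27, 31, 27 and 16 of them. The medians to DMSO were -2.52, -2.42, -2.93 and -2.14, and to scrambled siRNA -2.16, -2.01, -2.07 and -1.64. For these lists, scrambled siRNA stood below DMSO too, with medians from -0.57 to -0.42. CDK1, the kinase that drives entry into mitosis, had 1003 reads in DMSO, 671 in scrambled siRNA and 82 after PD0332991 (fold change to DMSO: 0.0825, 95% interval 0.0647 to 0.103). AURKB, the catalytic kinase of the chromosomal passenger complex, had 1425, 1430 and 128 reads. Scaled to library size, AURKB was at 156 CPM in DMSO and 134 in scrambled siRNA. PD0332991 was far below both, with a fold change to DMSO of 0.0905.

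At the kinetochore, SPC25 of the NDC80 complex had 295 reads in DMSO, 287 in scrambled siRNA and 12 after PD0332991. CENPE, a kinetochore motor, had 1281, 695 and 94 reads and CENPA, the centromeric histone H3, had 273, 144 and 15. In these genes PD0332991 was lowest and scrambled siRNA lay at or below DMSO. Fold changes to DMSO were 0.0424, 0.0740 and 0.0569, and to scrambled siRNA 0.0509, 0.160 and 0.126. KIF23 had 259, 231 and 15 reads, and ANLN, the contractile ring scaffold anillin, had 849, 515 and 67. TOP2A, the topoisomerase that disentangles chromosomes, was among the most counted, with 23894, 20578 and 3109 reads (fold change to DMSO: 0.131, 95% interval 0.126 to 0.136). CDCA5 had a fold change of 0.0570 and NCAPG, a condensin subunit, one of 0.0977. MKI67 had 3785 reads in DMSO, 3017 in scrambled siRNA and 285 after PD0332991 (fold changes: 0.0757 and 0.111).

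Of 39 genes for homologous recombination and Fanconi repair, 38 were below DMSO, 24 at least 2-fold, and 22 were at least 2-fold lower than both controls, with medians of -1.68 and -1.23. EXO1, a resection nuclease, had 150, 136 and 6 reads in DMSO, scrambled siRNA and PD0332991, and BRCA1 had 664, 663 and 86 (fold change to DMSO: 0.131, 95% interval 0.103 to 0.163). On the list of replication-coupled chromatin assembly and maintenance methylation, all 27 genes were below DMSO, 20 of them at least 2-fold, and 15 were at least 2-fold lower than both controls. UHRF1, which directs DNA methylation to new strands, had a fold change of 0.0983, HELLS, a chromatin remodeller, one of 0.155, and H2AFX, the histone variant H2A.X, one of 0.101. The gene with the firmest fall of all was FAM111B, which encodes a serine protease, with 639 reads in DMSO, 385 in scrambled siRNA and 16 after PD0332991 (fold change to DMSO: 0.0259, 95% interval 0.0143 to 0.0411).

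**Figure D2:**
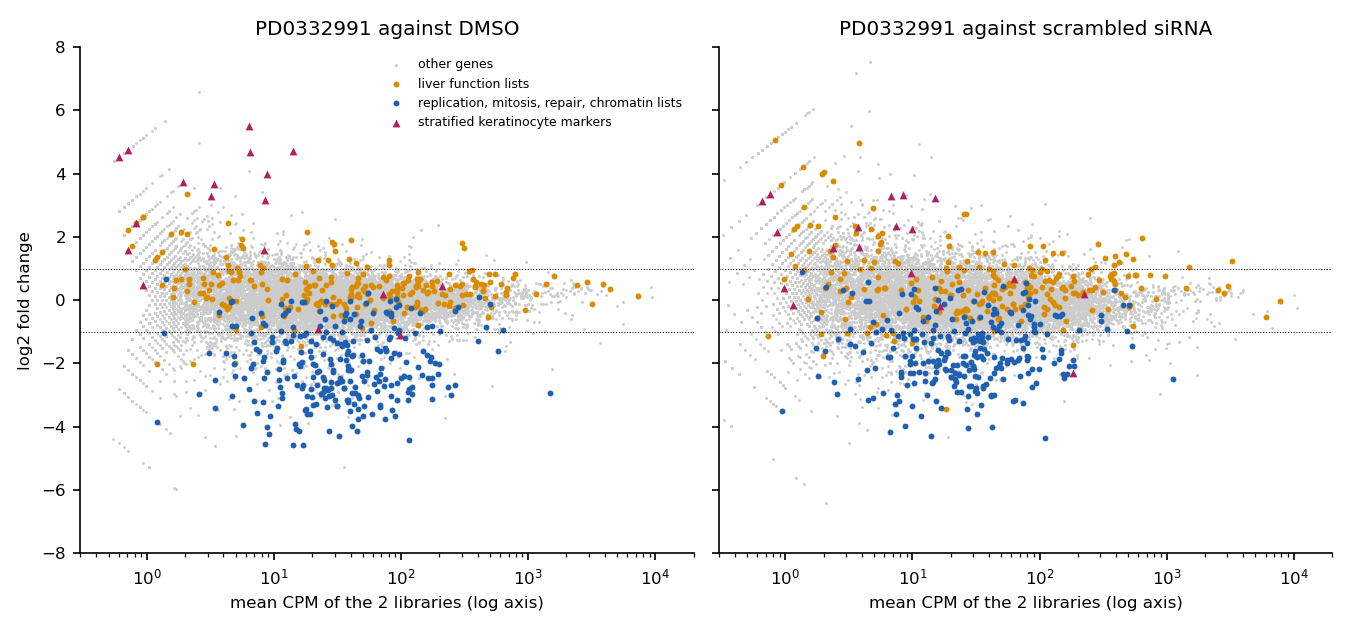
Log2 fold change of PD0332991 to DMSO (left) and to scrambled siRNA (right) against the mean CPM of the 2 libraries on a log axis, 1 point per gene, with dotted lines at 2-fold. Genes of the 9 replication, mitosis, repair and chromatin lists (blue) lie below 0 over the range of levels, 275 of 279 of them against DMSO, while liver genes (orange) lie around and above 0 and stratified keratinocyte markers (triangles) lie high at low levels.

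Histone genes, looked at after their values were seen, went in both directions. The genes of the replication-dependent clusters make transcripts that mostly end without a poly(A) tail, so oligo-dT libraries count them only in part. Of 22 such genes tested, 12 were at least 2-fold lower than DMSO and 2 at least 2-fold higher, and 11 and 1 were so against both controls. HIST1H4C, by far the most counted, had 8236 reads in DMSO, 6168 in scrambled siRNA and 1261 after PD0332991 (fold change to DMSO: 0.154, 95% interval 0.145 to 0.163). HIST1H2AB and HIST1H2BF had 30 and 31 reads in DMSO, 45 and 30 in scrambled siRNA and 0 after PD0332991. With 3 reads set in place of 0 the folds to DMSO were 0.100 and 0.0971, and the upper 95% limits were 0.131 and 0.127. The HIST2 symbols held lower and higher genes. HIST2H2AC had 126, 81 and 28 reads (fold changes: 0.226 and 0.410). HIST1H2BK had 40, 43 and 59 reads (fold changes: 1.47 and 1.60), and its 95% interval to DMSO, 0.974 to 2.27, reached no change. HIST2H2BE had 22, 51 and 98 reads and was 4.39 times as high as in DMSO and 2.25 times as high as in scrambled siRNA. Histone variants outside the clusters also divided, with a fold change to DMSO of 0.332 for H2AFZ (H2A.Z) and 1.02 for H3F3A (H3.3).

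Another family found on inspection was SNAR, a set of small non-coding RNA genes that exist in near-identical copies. All 26 SNAR entries tested were lower than DMSO by at least 2-fold, with fold changes from 0.109 to 0.377, and 13 were lower than both controls. They held 8489 reads in DMSO, 5368 in scrambled siRNA and 1862 after PD0332991. Several entries carry the same counts, such as SNAR-A5 and SNAR-A6 with 56, 35 and 16 reads each, so the 26 entries cannot be taken as 26 separate measurements.

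Genes commonly linked to a cell cycle exit through p53 were close to DMSO. None of 34 p53 target genes was at least 2-fold apart from DMSO in either direction, 2 were at least 2-fold higher and 1 lower than scrambled siRNA, and the medians were -0.13 and -0.12. CDKN1A, which encodes the CDK inhibitor p21, had 1196 reads in DMSO, 3543 in scrambled siRNA and 1508 after PD0332991. Its fold change was 1.27 to DMSO and 0.50 to scrambled siRNA, in opposite directions. SESN2, a stress-induced sestrin, had fold changes of 1.91 and 1.18 and POLH, a translesion polymerase, 0.605 and 0.743. Of 24 genes for senescence-associated secreted factors, 5 (20.8%) were at least 2-fold higher than DMSO and also than both controls, beside 7.49% and 4.16% of all genes, and 1 was lower than both. Against scrambled siRNA alone 10 were at least 2-fold higher and 5 lower, and the medians were 0.21 to DMSO and 0.73 to scrambled siRNA. The 5 genes higher than both were counted at no more than 27 reads after PD0332991, whereas CCL20, a chemokine, had 428 reads in DMSO, 487 in scrambled siRNA and 103 after PD0332991 (fold change to DMSO: 0.242, 95% interval 0.193 to 0.30).

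Genes of cell growth showed small shifts spread over whole lists. Of 74 ribosome biogenesis genes 70 were below 1, but only 2 were 2-fold lower, and the median was -0.42 to DMSO and -0.61 to scrambled siRNA. LYAR, a nucleolar factor, had 1729 reads in DMSO, 2128 in scrambled siRNA and 664 after PD0332991 (fold change to DMSO: 0.386, 95% interval 0.352 to 0.422), and NOP56, of the box C/D particles that modify ribosomal RNA, had a fold change of 0.518. Cytosolic ribosomal protein genes lay the other way, 70 of 77 above 1, with a median of 0.24 to DMSO and 0.27 to scrambled siRNA and with RPL32 at 1.46. Cytosolic chaperones had a median of -0.47 to DMSO and -0.61 to scrambled siRNA, with 30 of 33 below 1, and HSP90AA1 had 32907 reads in DMSO, 34147 in scrambled siRNA and 17573 after PD0332991. The proteasome list had medians of -0.33 and -0.56, and the mitochondrial ribosomal proteins -0.28 and -0.37. Respiratory chain subunits had 39 of 78 genes above 1 and 39 below. Small nucleolar RNA host genes had a median of 0.37, and EPB41L4A-AS1, 1 of them, had 403, 511 and 1069 reads (fold changes: 2.66 and 2.46). The median of all genes was 0.02.

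Tubulin genes stood out among the cytoskeleton. At least 2-fold lower than DMSO were 7 of 14, and 6 were lower than both controls. TUBA1B, an alpha-tubulin, had 23122 reads in DMSO, 30901 in scrambled siRNA and 5143 after PD0332991, and its fold changes were 0.223 (95% interval 0.217 to 0.230) and 0.196. TUBB, a beta-tubulin, had 48233, 52203 and 18850 reads with fold changes of 0.392 and 0.424. Members of the tubulin family resemble each other in coding sequence, and the handling of reads that match several genes is not given in the sources used here. Actin cytoskeleton genes had a median of -0.16, with ACTB at fold changes of 0.558 and 0.416.

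Targets of ATF4 were among the well-counted higher genes, ATF4 being the transcription factor of the integrated stress response that serves amino acid synthesis and transport. Of 33 ATF4 list genes 31 were above 1, 14 at least 2-fold higher than DMSO and 7 higher than both controls, and 1 was lower. In the 30 at 10 CPM or more the share at least 2-fold higher was 43.3%, beside 2.35% of all genes at that level. The list median was 0.93 to DMSO and 0.43 to scrambled siRNA, and scrambled siRNA was itself 0.45 above DMSO. ASNS, asparagine synthetase, had 578 reads in DMSO, 1275 in scrambled siRNA and 3003 after PD0332991. NUPR1, a stress-induced nuclear protein, had 457, 545 and 2137 reads. For NUPR1 the controls were alike and for ASNS scrambled siRNA lay between, giving fold changes to DMSO of 5.21 (95% interval 4.77 to 5.71) for ASNS and 4.69 (4.24 to 5.20) for NUPR1, and to scrambled siRNA of 2.77 and 4.60.

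PCK2, the mitochondrial phosphoenolpyruvate carboxykinase, had 1224, 1964 and 4234 reads in DMSO, scrambled siRNA and PD0332991 (fold changes: 3.47 and 2.53). ADM2, a peptide hormone gene, had 79, 212 and 474 reads (fold changes: 5.99 and 2.62), and SLC6A9, a glycine transporter, 125, 130 and 401 (fold changes: 3.21 and 3.61). The other genes on the list were not all apart from both controls. SLC7A11, the cystine transporter, had 493 reads in DMSO, 1743 in scrambled siRNA and 1622 after PD0332991, so its fold change of 3.30 to DMSO became 1.09 to scrambled siRNA. The aminoacyl-tRNA synthetases behaved like SLC7A11, with GARS at 2.01 and 1.04 and a list median of 0.34 to DMSO and -0.08 to scrambled siRNA.

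Of 31 folding and unfolded protein response genes of the endoplasmic reticulum, 23 were below DMSO and 8 above. At least 2-fold lower were 4 (12.9%, beside 7.06% of all genes), 3 of them against both controls, and the medians were -0.32 and -0.47. ATF6, a stress sensor, had a fold change to DMSO of 1.57 (95% interval 1.35 to 1.84) and the oxidase gene ERO1B one of 1.86 (1.25 to 2.86). CALR, the lectin chaperone calreticulin, had 9360 reads in DMSO, 12962 in scrambled siRNA and 3763 after PD0332991 (fold change to DMSO: 0.403, 95% interval 0.388 to 0.419). MANF and CRELD2, both secreted stress proteins of the same organelle, had fold changes of 0.417 and 0.386 to DMSO and 0.380 and 0.325 to scrambled siRNA, and the disulfide isomerase PDIA4 had 0.371 and 0.502. ERN2, an IRE1-type sensor on no list and chosen after its value was seen, had 3631, 2602 and 440 reads (fold changes: 0.122 and 0.199).

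The metallothioneins tested, which bind zinc and copper, were all below DMSO. Of 9 genes tested 6 (66.7%, beside 7.06% of all genes) were at least 2-fold lower than DMSO. Only 2 were lower than both controls, and the medians were -1.25 and -0.71. MT1G had 3287 reads in DMSO, 2110 in scrambled siRNA and 897 after PD0332991 (fold changes: 0.274 and 0.50), while MT1M, with 93, 30 and 25 reads, had fold changes of 0.274 and 0.980. The family's genes are similar in sequence, so reads could be split among copies. NRF2 target genes had 15 of 31 above 1 and hypoxia targets outside glycolysis 11 of 23. The median of the hypoxia targets to scrambled siRNA was -0.16, and -0.28 over the genes that pass the read minimum in that comparison.

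**Figure D3:**
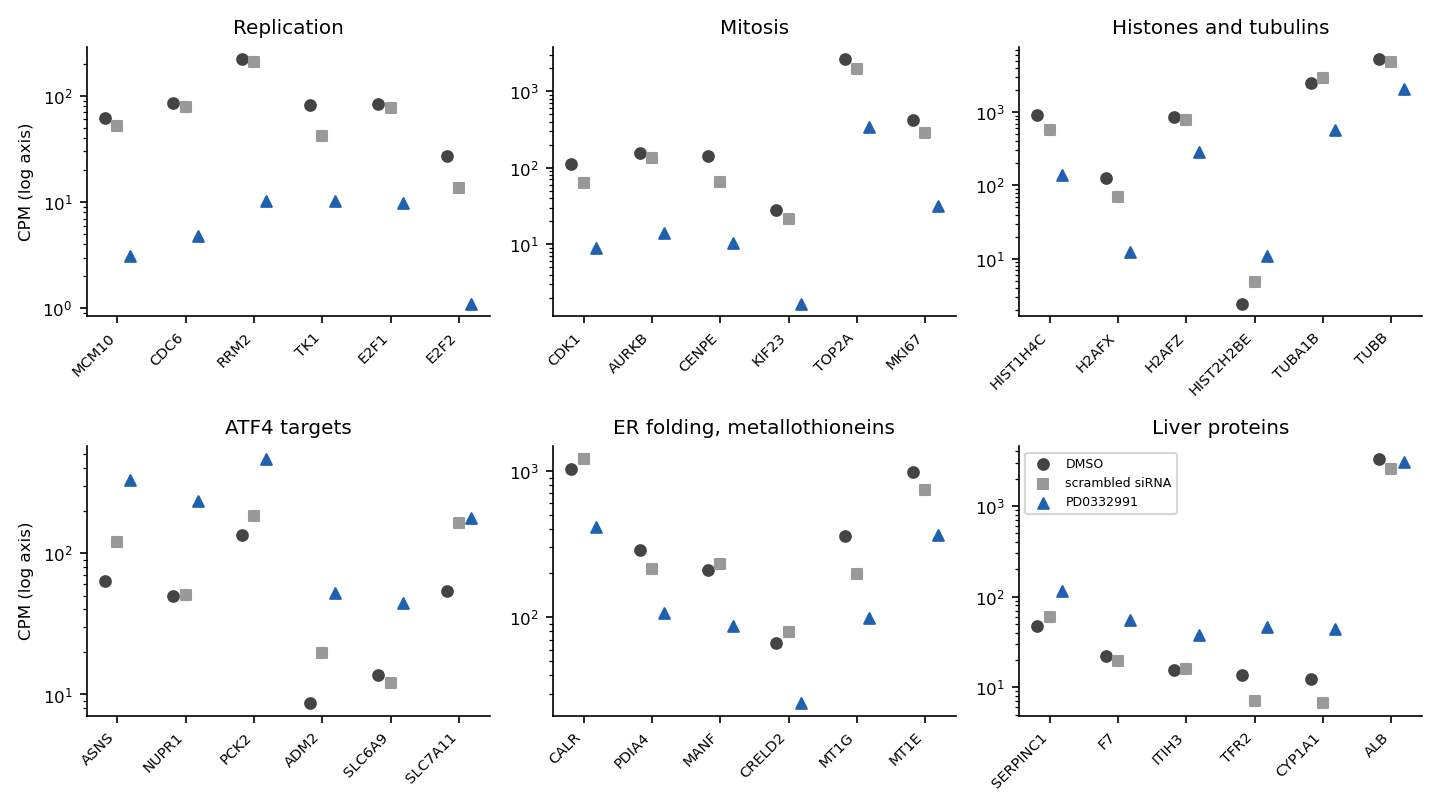
CPM on a log axis in the DMSO (circles), scrambled siRNA (squares) and PD0332991 (triangles) libraries for 36 genes in 6 groups, 1 library each and so without error bars. PD0332991 is lowest for every replication and mitosis gene shown and highest for every ATF4 target shown, although SLC7A11 is nearly level with scrambled siRNA.

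Lipid genes moved by less. Cholesterol synthesis genes had a median of -0.35 to DMSO and -0.92 to scrambled siRNA, with scrambled siRNA 0.62 above DMSO, so the size depended on the control. HMGCS1, an early enzyme of the pathway, had 3642 reads in DMSO, 8819 in scrambled siRNA and 1994 after PD0332991 (fold changes: 0.549 and 0.266), and IDI1, the isopentenyl diphosphate isomerase, had 840, 794 and 301 (fold changes: 0.360 and 0.446). Both desaturases of polyunsaturated fatty acids, FADS1 and FADS2, were lower than both controls, at 0.415 and 0.386 for FADS1 and 0.455 and 0.452 for FADS2. MLXIPL, the carbohydrate-response factor ChREBP, had fold changes of 1.67 and 2.20. Of 33 fatty acid oxidation genes 28 were above 1, with a median of 0.33 to DMSO and 0.25 to scrambled siRNA. BDH1, which interconverts ketone bodies, had 200, 345 and 673 reads (fold changes: 3.37 and 2.29). On the lysosome and autophagy list 37 of 48 genes were above 1, the median being 0.40 to DMSO but 0.05 to scrambled siRNA, and ULK1, the kinase that starts autophagy, had 252, 196 and 610 reads (fold changes: 2.43 and 3.65).

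Liver genes were higher by modest amounts. Over the lists of liver function, 38 of 257 genes (14.8%) were at least 2-fold higher than DMSO and 4 lower, and 24 were higher than both controls. In the 185 of them at 10 CPM or more, 16 (8.65%) were at least 2-fold higher and 1 lower, beside 2.35% and 5.38% of all genes at that level. Coagulation genes had the highest liver median, 0.66 to DMSO and 0.84 to scrambled siRNA, with 22 of 25 above 1, 6 at least 2-fold higher than DMSO and 5 higher than both. At 10 CPM or more these were 3 and 2 of 19. SERPINC1, antithrombin, had 434 reads in DMSO, 635 in scrambled siRNA and 1038 after PD0332991 (fold change to DMSO: 2.40, 95% interval 2.14 to 2.69) and stood at 1.92 to scrambled siRNA, short of 2-fold. F7, coagulation factor VII, had 204, 209 and 500 reads (fold changes: 2.46 and 2.81), and F10 was 2.08 and 2.20. For F7 and F10, PD0332991 was at least 2-fold above both controls.

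Of 37 genes for secreted plasma carriers and protease inhibitors, 7 (18.9%) were at least 2-fold higher than DMSO and 6 higher than both, with medians of 0.41 and 0.78. At 10 CPM or more these were 4 and 3 of 33, or 12.1% higher than DMSO. ITIH3, an inhibitor heavy chain of the plasma, had 142, 171 and 343 reads (fold changes: 2.42 and 2.35), and TFR2, the iron-sensing transferrin receptor, had 124, 75 and 421 (fold changes: 3.40 and 6.56). HAMP, the iron hormone hepcidin, went against its list and against its own controls. It had 655 reads in DMSO, 394 after PD0332991 and 0 in scrambled siRNA, and its fold change to DMSO was 0.604. With 3 reads set in place of 0, PD0332991 was 154-fold above scrambled siRNA (lower limit of the counting interval: 125). Apolipoprotein genes had a median of 0.31, complement genes 0.29 and bile acid genes 0.39, all to DMSO. Of 35 cytochrome P450 and conjugation genes, 9 (25.7%) were at least 2-fold higher than DMSO and 2 (5.71%) lower, beside 7.49% and 7.06% of all genes. At 10 CPM or more 4 of 18 (22.2%) were higher and 1 (5.56%) lower, beside 2.35% and 5.38% of all genes at that level. CYP1A1, the aryl hydrocarbon receptor target, had 113, 71 and 404 reads (fold changes: 3.58 and 6.64), and CYP4V2, a fatty acid hydroxylase, had 60, 96 and 271 (fold changes: 4.50 and 3.30). CYP24A1, which breaks down active vitamin D, had 218, 27 and 79 reads and turned from 0.365 to DMSO to 3.39 to scrambled siRNA.

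The defining markers of hepatocytes differed by less than 2-fold from DMSO. ALB, albumin, had 30328 reads in DMSO, 27539 in scrambled siRNA and 27771 after PD0332991 (fold changes: 0.919 and 1.19). AFP, the fetal plasma protein alpha-fetoprotein, was lower at 0.687 and 0.570. Of 20 hepatocyte and hepatoblast markers none was 2-fold apart from DMSO, while the retinol carrier RBP4 (fold change 2.33) and the fibrinogen chain FGG (2.16) were at least 2-fold higher than scrambled siRNA and the simple keratin KRT18 (0.466) lower. All 20 had at least 10 reads in each library, and the median was 0.34 to DMSO and 0.28 to scrambled siRNA. Liver transcription factors and nuclear receptors had medians of 0.16 to DMSO and 0.41 to scrambled siRNA. Against DMSO, 19 of 30 were above 1 and 11 below, with log2 fold changes from -0.88 to 2.21. HNF4A had a fold change of 1.36 in both comparisons. Urea cycle and amino acid catabolism genes had medians of 0.21 to DMSO and 0.32 to scrambled siRNA. Gluconeogenesis and glycogen genes had medians of 0.19 to DMSO but 0.06 to scrambled siRNA.

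Among well-counted genes outside the lists, chosen after their values were seen, HPN, the hepatocyte serine protease hepsin, had 455 reads in DMSO, 259 in scrambled siRNA and 1803 after PD0332991 (fold change to DMSO: 3.97, 95% interval 3.59 to 4.42). S100P, a calcium-binding protein, had 2290, 2262 and 6201 reads (fold changes: 2.72 and 3.22), and the long non-coding RNA NEAT1, which builds paraspeckles, had 2889, 2174 and 6926 (fold changes: 2.41 and 3.74). Of 8225 genes with at least 100 reads in each of the 3 libraries, 52 were at least 2-fold higher than both controls and 184 at least 2-fold lower. Long non-coding RNAs, typed from RefSeq, were at least 2-fold higher than DMSO in 161 of 699 genes (23.0%) and protein-coding genes in 754 of 12031 (6.27%), though lncRNAs are counted at lower levels. DKK1, a secreted Wnt antagonist, was lower, with 378, 845 and 45 reads (fold changes: 0.121 and 0.0632), as was STMN1, the microtubule destabiliser stathmin, with 3934, 3285 and 787 (fold changes: 0.201 and 0.282).

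Most signalling and immune lists shifted little against DMSO. ERK feedback genes were lower, with medians of -0.45 and -0.42 and 14 of 19 below 1. At least 2-fold lower than DMSO were 3 (15.8%, beside 7.06% of all genes). FOSL1, an AP-1 factor induced by ERK, had 115, 137 and 42 reads (fold changes: 0.369 and 0.363). Immediate early genes had medians of -0.23 and -0.75, with IER3 at 0.674 and 0.25. The BMP and TGF-beta targets depended on the control, at 0.08 to DMSO and 1.55 to scrambled siRNA, and scrambled siRNA had a median of -0.99 to DMSO. ID3, a BMP-induced inhibitor of differentiation factors, had 1856 reads in DMSO, 257 in scrambled siRNA and 1011 after PD0332991, giving 0.547 and 4.62. Interferon-stimulated genes had medians of 0.12 and 0.14. Of 41, 2 (4.88%) were at least 2-fold higher than DMSO and 2 (4.88%) lower, beside 7.49% and 7.06% of all genes. Medians were 0.02 and 0.22 for class I antigen presentation, -0.11 and -0.21 for NF-kappaB targets, and -0.11 and -0.06 for YAP-TEAD targets. MYC had 227, 151 and 168 reads and fold changes of 0.743 and 1.31, in opposite directions.

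**Figure D4:**
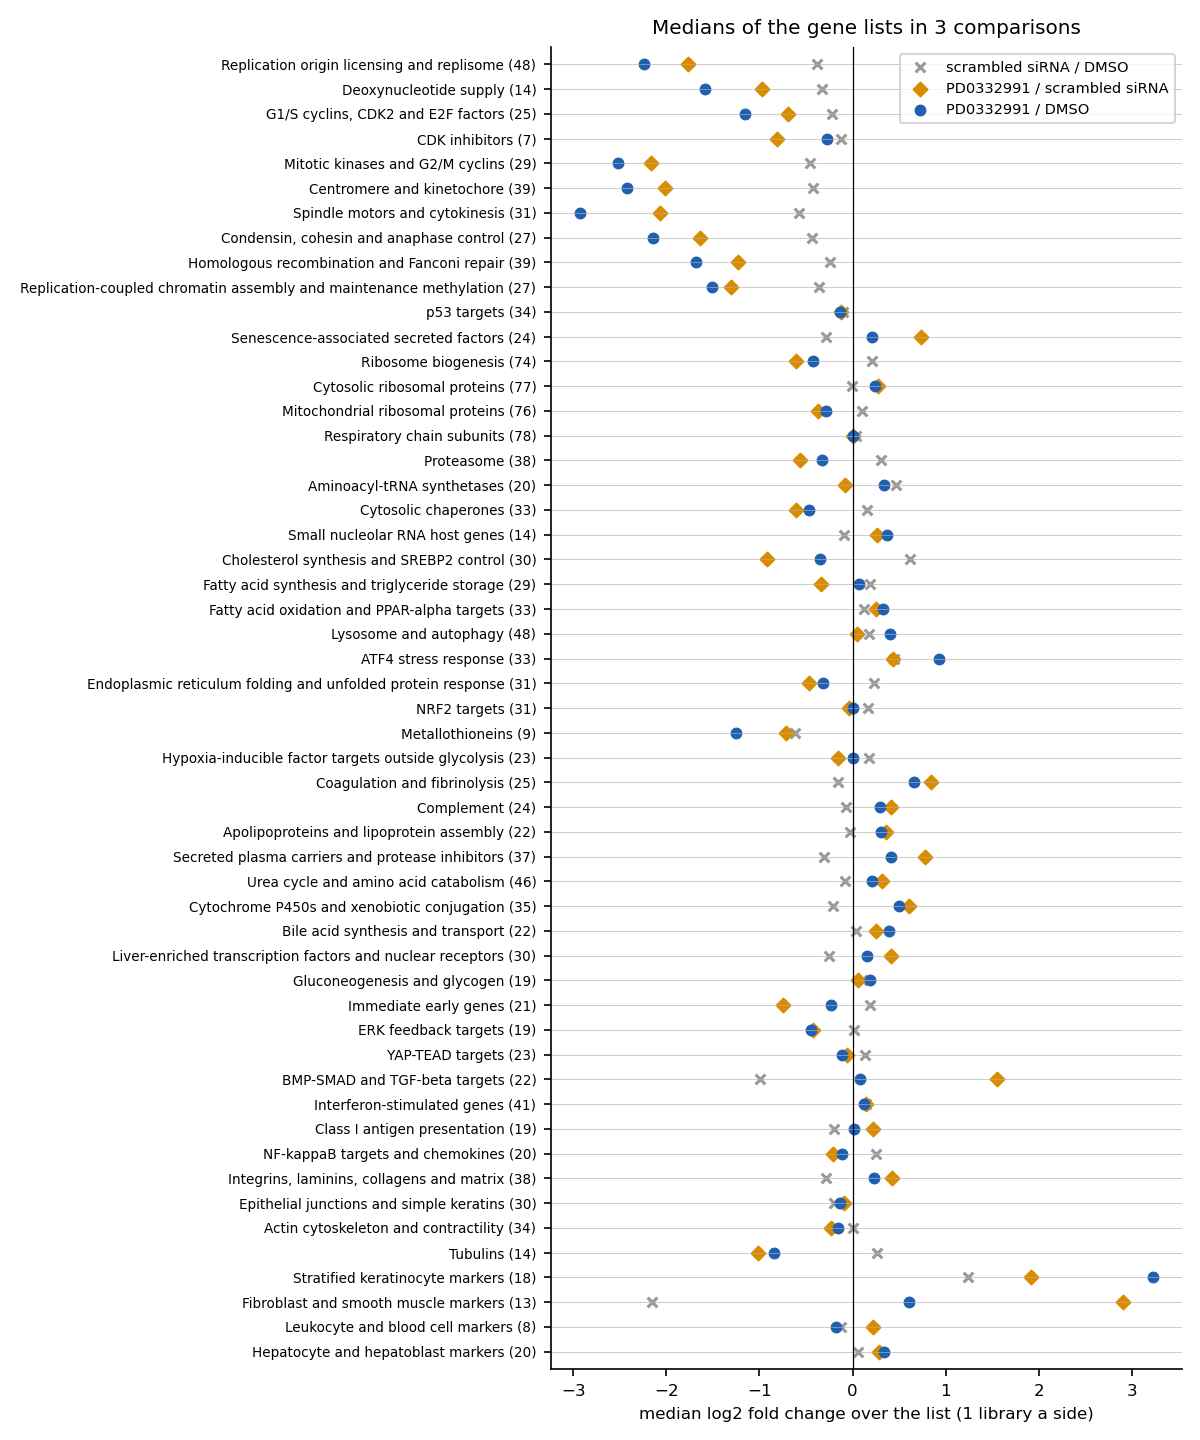
Median log2 fold change (horizontal axis) of each list with at least 5 genes tested, the number in parentheses, for PD0332991 to DMSO (circles), PD0332991 to scrambled siRNA (diamonds) and scrambled siRNA to DMSO (crosses), 1 library a side. The spindle motor and cytokinesis list lies lowest against DMSO at -2.93, the ATF4 list lies at 0.93 and 0.43, and for BMP and cholesterol genes the crosses lie away from 0 on the side opposite to the diamonds.

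Several of the firmest rises were genes of low count outside the liver lists. TSC22D3, a glucocorticoid-induced leucine zipper gene, had 6 reads in DMSO, 26 in scrambled siRNA and 110 after PD0332991 (fold change to DMSO: 17.1, 95% interval 8.19 to 51.2). The aquaporin gene AQP8 had 12, 36 and 134 reads and ZC3H6, a zinc finger gene, had 38, 99 and 266, with fold changes to scrambled siRNA of 4.32 and 3.15. Each of these 3 had the order DMSO, scrambled siRNA, PD0332991 from low to high. RNF125, a ubiquitin ligase, had 5, 8 and 64 reads, and ZNF22 had 8, 1 and 82. PSMG3-AS1 had 0, 13 and 47 reads and was at 4.12 times the level of scrambled siRNA. With 3 reads set in place of 0 it was 15.7-fold above DMSO (lower 95% limit: 12.3).

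Many markers of other cell types were present at low counts and differed between the libraries. Of 43 markers of stratified keratinocytes, 35 had more reads after PD0332991 than in DMSO and 33 more than in scrambled siRNA, although only 6 had at least 10 reads in DMSO. With 18 at that minimum after PD0332991, most passed it only where they were high, so no share past 2-fold is given. KRT5, a basal keratin, had 2 reads in DMSO, 13 in scrambled siRNA and 113 after PD0332991, a ratio of 45.5 (95% interval 15.3 to 474) to DMSO and 9.85 (5.74 to 19.8) to scrambled siRNA. KRT14, its partner, had 9, 31 and 249 reads and the cornified envelope gene SPRR1A had 4, 26 and 114. KRT5 and KRT14 were the firmest rises of all. The order was the same for the 3 genes, DMSO lowest, scrambled siRNA next and PD0332991 highest. The summed list held 3827 reads in DMSO, 6523 in scrambled siRNA and 4767 after PD0332991, most of them in SFN, PERP, KRT10 and FABP5, and without these 4, left out after their values were seen, 117, 300 and 1182. KRT2, LOR, S100A7 and CALML3 had 0 reads in the 3 libraries, and TP63, the master factor of stratified epithelia, had 1 read in DMSO, 0 in scrambled siRNA and 1 after PD0332991. Whether these reads come from HepG2 cells or from other cells was not tested.

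Fibroblast and smooth muscle markers had a median of 0.61 to DMSO and 2.90 to scrambled siRNA, with scrambled siRNA at -2.15 to DMSO. COL1A2, a collagen I chain, had 66 reads in DMSO, 17 in scrambled siRNA and 148 after PD0332991, and DCN, decorin, had 0, 0 and 18. With 3 reads set in place of 0, DCN was 6.02-fold above DMSO (lower limit of the counting interval: 4.41). The list of 19 summed to 1627, 1659 and 2623 reads. Scaled to library size, these were 178 CPM in DMSO, 155 in scrambled siRNA and 288 after PD0332991. Without ACTA2, S100A4, MYH11 and CNN1, left out after their values were seen, the other 15 held 529 reads in DMSO, 111 in scrambled siRNA and 867 after PD0332991. Integrin and matrix genes include these collagens. Of 38, 9 (23.7%) were at least 2-fold higher than DMSO and 4 (10.5%) lower, beside 7.49% and 7.06% of all genes. At 10 CPM or more, of 23 genes, 2 (8.70%) were higher and 1 (4.35%) lower, beside 2.35% and 5.38% of all genes at that level. Endothelial markers were at 0 in 8 of 14 genes both in DMSO and after PD0332991, but ESAM had 132 reads in DMSO, 411 in scrambled siRNA and 73 after PD0332991. PTPRC, the leukocyte antigen CD45, had 2 reads in DMSO and 0 in the others. Other leukocyte markers were well counted, LYZ with 6780, 10932 and 4587 reads and CD74 with 851, 1488 and 1083. The part of other cells in the rises of weakly counted genes was not tested. Of the genes at least 2-fold lower than DMSO, 3 were on these lists, SFN, CNN1 and CD3D.

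**Figure D5:**
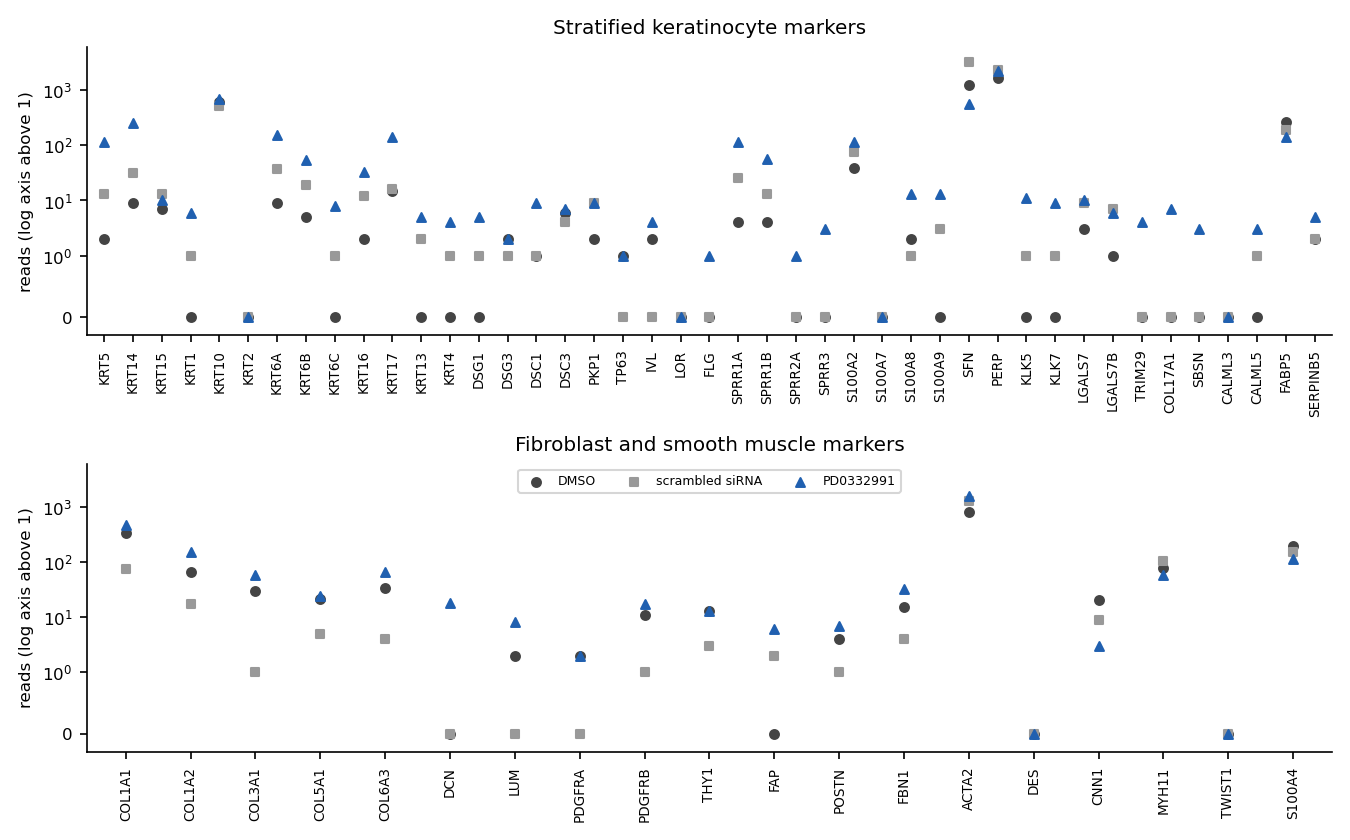
Reads per library (log axis above 1 read) of each stratified keratinocyte marker and each fibroblast or smooth muscle marker in DMSO (circles), scrambled siRNA (squares) and PD0332991 (triangles). Most keratinocyte markers are highest after PD0332991, and most fibroblast markers are lowest in scrambled siRNA.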

How the data were processed

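QuantSeq 3′ mRNA libraries of HepG2 cells were analysed, 4 in all with 1 per condition: DMSO, PD0332991, scrambled siRNA, and siRNA against CDK4 and CDK6. The last entered only the library scaling. The values that the authors deposited are raw counts of reads per gene symbol. The submitters' processing notes name Bowtie2, edgeR and hg19. The counter, the annotation and the strand setting are not given in the sources used here, so overlapping and antisense genes cannot be told apart. Depth was 8983848 to 11176880 reads per library. Groups were taken from the sample labels.

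Each file lists 25737 entries, in which 286 symbols repeat, and repeats were summed. Library sizes were scaled by TMM (edgeR 4.0.16, R 4.3.3), with factors from 0.957 to 1.029. A pseudocount of 0.5 reads was added for folds, and a gene needed 10 reads in 1 of the libraries compared. Intervals are 95% Clopper-Pearson intervals (scipy 1.17.1). The floor was 3 reads, used per library, and no fold was given with both libraries at or under it. With 1 library per condition no test could be run, so genes were counted as at least 2-fold apart. The scripts were tested on simulated data. The alternatives are another scaling (DESeq2 1.42.0 size factors, total counts, quantile normalization), pseudocount, filter, threshold, repeat rule and control.

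The members and 54 gene lists were chosen with earlier results of these data known. Genes were named by rule: the 15 firmest rises and 15 firmest falls by the interval end nearest to 1 (with the interval against scrambled siRNA on the same side of 1), for every list the 4 firmest on the side of its median and 2 on the opposite side, and CDK4, CDK6, CCND1, CCNE2, RB1, E2F1, CDKN1A, MYC, MKI67, ALB and AFP. Not every gene that the rule gives is printed. Others are named as counterexamples, as family members or as well-counted genes outside the lists, after their values were seen.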

Additional observations from a re-analysis of the deposited data

How the results depend on the processing

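The counts of genes past 2-fold depended most on the rules for counting. Against 1007 higher and 949 lower genes, a filter of 1 read gave 1682 higher genes and a count minimum of 50 gave 406 (674 lower), so the higher calls leaned on weakly counted genes. A 1.5-fold threshold gave 2259 higher and 2024 lower, and requiring the whole 95% interval past 2-fold gave 226 and 455. The other scalings, a pseudocount of 5 reads and the repeat rule kept both counts within 1.5 times, and with the scalings 48.2% to 52.5% of calls were upward. No paired analysis was possible because each condition had 1 library. Leaving out a library was likewise not possible.

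No setting tried reversed the medians of 53 of the 54 lists or the fold changes of 129 of the 135 genes named. A sign change was not counted as a reversal where the gene's counting interval reached no change. For a list, the medians of its members' interval ends took the place of that interval. The fatty acid synthesis and triglyceride storage median turned from 0.07 to -0.34 with scrambled siRNA as the control, and was not counted for that reason. The reversals that were counted all came with that control. The aminoacyl-tRNA synthetase median turned to -0.08. The fold changes became 1.19 for ALB, 0.50 for CDKN1A, 3.39 for CYP24A1, 4.62 for ID3 and 1.31 for MYC. For HAMP the fold change became 154 with 3 reads set in place of 0. Sizes were less stable than directions. With scrambled siRNA as the control, 94 of the fold changes named left their counting interval to DMSO without a counted reversal, and 34 stayed within it. Of the list medians, 26 left the span between the medians of their members' interval ends and 27 stayed within it. Which control is the nearer one for PD0332991 was not tested. Depth limits genes under 10 reads, and no setting replaces a second culture.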
